A study of Rattus norvegicus with 20 samples.

Results

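Heat shock proteins and the folding machinery were followed in rat subplate neurons grown with or without a layer of cortical cells nearby. The members were all probe sets of the deposited table of expressed genes whose gene symbol marks a heat shock protein, a DnaJ protein of class A, B or C, a subunit of the chaperonin TRiC, a protein disulfide isomerase, calreticulin or calnexin. The symbols were matched by spelling, so relatives such as Hspbp1 and Hspbap1, which are named for binding heat shock proteins, were included. The rule found 69 probe sets, and 2 that name several genes were left out. The remaining 67 probe sets stood for 43 genes, of 17243 expressed probe sets and 31042 tested, and of 8231 expressed genes named by a single symbol. By the known place of each protein, 14 probe sets of 9 genes belonged to the endoplasmic reticulum, 36 of 24 genes to the cytosol and nucleus, 8 of 5 genes to the mitochondrion and 7 of 3 genes to vesicles and endosomes. The products of Dnajc4 and Tmem132a (deposited as Hspa5bp1) were not placed. No deposited symbol begins with Pdia, and protein disulfide isomerases were measured only under older names, as were Hsp90b1, Hsp90ab1 and Cct2. Those probe sets are described separately.

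The study used Affymetrix rat arrays to ask whether growth with cortical cells changes transcription in subplate neurons, an early-born population of the developing cortex, around the time when these neurons form synapses. There were 4 groups of 5 arrays, which the labels call biological replicates numbered 1 to 5: neurons cocultured for 96 h, control neurons at 96 h, neurons cocultured for 24 h and control neurons at 24 h. In all groups the cells came from the posterior cortex of rats at embryonic day 17, were picked by panning on an anti-p75 antibody, which binds a neurotrophin receptor, and were plated at 22100 per well without serum. Coculture coverslips sat above 650000 cortical cells left over from that panning, held off them by wax spacers, and control coverslips sat in wells with spacers and medium but no cells. The panning is the sole selection, so the cultures hold whichever cells stuck to the antibody. RNA of generally 6 pooled coverslips, 100 ng per condition, went through 2 rounds of amplification before labelling. Each value is a ratio to the probe set's own median over the 20 arrays, so it shows how a gene varies between arrays and gives no level that could be set against another gene.

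Hsp70 proteins bind unfolded stretches of other proteins and release them in a cycle driven by ATP. DnaJ proteins start that cycle, nucleotide exchange factors such as Hsp110 end it, and Hsp90 and the ring-shaped chaperonins take over selected clients. The cytosol, the mitochondrion and the endoplasmic reticulum each have their own set: cytosolic chaperones are classically induced by heat shock factor, while chaperones of the endoplasmic reticulum are induced by the unfolded protein response.

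The promoters of the members, whose sequence was not used to choose them, were searched for the elements bound under these responses. RefSeq windows of assembly GRCr8, reaching from 250 bases before to 50 bases after the annotated start, were available for 36 of the 43 genes. On both strands they were searched for the heat shock element, as alternating GAA and TTC units spaced by 2 bases of any kind, in a run of 3 or in a run of 2, with either unit first. Every run of 3 also holds runs of 2. They were searched as well for the endoplasmic reticulum stress element, either CCAAT, 9 bases of any kind and CCACG, or ATTGG, 1 base of any kind and CCACG. The run of 3 units was present in 6 of 36 member promoters (16.7%), against 202 of all 27457 promoters (0.736%). Its 6 genes were Hsph1, Hspa8, Dnaja1 and Cct4 of the cytosol and the mitochondrial pair Hspd1 and Hspe1. The shorter run of 2 units was present in 13 of 36 (36.1%), against 15.4% of all promoters. A stress element of the endoplasmic reticulum was present in 5 of 36 (13.9%), against 36 of all promoters (0.131%), and its genes were Hspa5, Calr, Canx, Dnajb11 and Dnajc3. All 5 encode proteins of the endoplasmic reticulum, where 0 of 9 promoters held a heat shock element of either length. These are letter matches and not measured binding. The promoters below are shown because their genes stand for both kinds of element and carry the results that follow: Dnajb1 with 2 separate short elements, Hsph1 and Hspe1 with a run of 3 or more units, and Hspa5, Calr and Dnajb11 with a stress element. Capitals mark the fixed bases of each match, and in Calr the match reads on the opposite strand. Sequences are from RefSeq, GRCr8, printed 5′ to 3′ on the strand of the gene.
Dnajb1, chr19:41431092-41431391, minus strand: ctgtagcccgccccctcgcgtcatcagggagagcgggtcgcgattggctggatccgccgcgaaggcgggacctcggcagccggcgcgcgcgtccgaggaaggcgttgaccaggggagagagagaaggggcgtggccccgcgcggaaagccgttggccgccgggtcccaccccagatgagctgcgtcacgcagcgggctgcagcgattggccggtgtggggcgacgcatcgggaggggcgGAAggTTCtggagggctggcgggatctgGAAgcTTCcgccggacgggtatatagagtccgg
Hsph1, chr12:10427118-10427417, plus strand: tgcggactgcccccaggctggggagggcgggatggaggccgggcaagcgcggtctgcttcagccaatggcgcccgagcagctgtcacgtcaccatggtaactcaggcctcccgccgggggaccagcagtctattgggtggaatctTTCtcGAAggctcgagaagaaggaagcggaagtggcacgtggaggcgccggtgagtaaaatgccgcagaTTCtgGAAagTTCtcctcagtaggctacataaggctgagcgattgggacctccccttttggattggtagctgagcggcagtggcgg
Hspe1, chr9:64084077-64084376, plus strand: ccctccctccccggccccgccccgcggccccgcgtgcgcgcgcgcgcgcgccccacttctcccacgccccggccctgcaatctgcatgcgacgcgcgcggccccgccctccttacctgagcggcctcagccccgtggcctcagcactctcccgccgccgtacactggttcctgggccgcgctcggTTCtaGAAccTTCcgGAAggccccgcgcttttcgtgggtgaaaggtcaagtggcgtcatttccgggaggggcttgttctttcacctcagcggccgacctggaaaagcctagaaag
Hspa5, chr3:38452766-38453065, plus strand: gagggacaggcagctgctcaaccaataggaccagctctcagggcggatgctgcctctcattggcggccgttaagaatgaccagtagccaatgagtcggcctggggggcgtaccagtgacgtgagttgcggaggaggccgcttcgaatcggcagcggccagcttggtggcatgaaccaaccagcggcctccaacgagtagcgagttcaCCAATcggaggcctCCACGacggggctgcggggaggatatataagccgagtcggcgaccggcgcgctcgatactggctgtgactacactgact
Calr, chr19:40213117-40213416, plus strand: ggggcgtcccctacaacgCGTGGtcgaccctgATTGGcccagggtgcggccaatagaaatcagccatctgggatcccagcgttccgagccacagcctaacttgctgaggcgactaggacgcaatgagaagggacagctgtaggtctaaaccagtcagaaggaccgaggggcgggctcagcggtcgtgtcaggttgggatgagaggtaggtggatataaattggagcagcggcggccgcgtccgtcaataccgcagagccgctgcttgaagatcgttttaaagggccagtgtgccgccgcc
Dnajb11, chr11:91672751-91673050, minus strand: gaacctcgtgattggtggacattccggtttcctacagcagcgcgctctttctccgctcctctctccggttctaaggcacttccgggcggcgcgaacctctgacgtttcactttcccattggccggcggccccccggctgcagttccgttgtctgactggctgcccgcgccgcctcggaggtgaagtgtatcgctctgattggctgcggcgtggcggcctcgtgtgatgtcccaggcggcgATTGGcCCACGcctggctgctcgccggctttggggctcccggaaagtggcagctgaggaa

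The arrays differed in ways that touch every result below. The added bacterial and phage hybridisation controls, 18 probe sets, read higher in cocultures, with a median log2 ratio of 0.54 against -1.02 in controls at 96 h and of 0.07 against -0.89 at 24 h. The 4 arrays numbered 5 stood apart, and the spread of expressed probe sets was largest on the cocultured ones, with an SD of 0.83 at 96 h and 0.77 at 24 h. The Gapdh control, 3′ minus 5′ probe set, had a median log2 ratio of 0.09 in cocultures and -0.22 in controls at 96 h, and of 0.05 and -0.10 at 24 h, and was higher in coculture in 4 of 5 pairs at each time. The same difference for actin was lowest on the cocultured arrays numbered 5, at -0.69 at 96 h and -0.62 at 24 h. Over all expressed probe sets the median log2 change with coculture was -0.26 at 96 h and -0.13 at 24 h. Of 7 subplate markers only Ccn2 and Nr4a2 were in the expressed table. At 96 h 6 of 7 radial glia probe sets, 5 of 7 of astrocytes and 3 of 3 of oligodendrocyte precursors rose in cocultures, at 24 h 5, 1 and 3, and none of the 8 microglial genes was listed as expressed. The array means of the radial glia list ranged from 0.57 to 1.14 in cocultures and from -1.65 to -1.14 in controls at 96 h (log2 ratio), those of the neuron list from -0.81 to 0.09 in cocultures and from -0.19 to 0.29 in controls. In bulk RNA, fewer cells of a type and less RNA per cell cannot be told apart, and the part of these markers and of RNA quality in the results was not tested.

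After 96 h of coculture, chaperones of the cytosol, the mitochondrion, the endoplasmic reticulum and vesicles fell. Of the 67 probe sets 37 fell (55.2%) and 1 rose, in a limma fit over all 31042 probe sets with adjusted p under 0.05. Falls were called for 30% of expressed probe sets and 17.9% of all probe sets, and rises for 8.52% and 14.1%. The median log2 change of the members was -0.48, where that of expressed probe sets was -0.26. Of the members 58 of 67 lay below 0, and the share of expressed probe sets below 0 is not given here. At least 1 probe set fell for 30 of the 43 genes. On 23 probe sets all 5 cocultured arrays lay below all 5 control arrays, which held for 18.1% of expressed probe sets. The largest falls were in Hspa9, Dnajb1, Hsph1, Cct5, Hspa2, Dnajc6, Dnajc5 and Hspbp1, from -2.07 to -1.35 on the log2 scale. Their products span the mitochondrion, the cytosol and synaptic vesicles. With the replicate number as a block 48 fell and 5 rose, where falls were called for 47.1% and rises for 16.8% of expressed probe sets, and all 38 earlier calls were among them. The count of falls depended on how the arrays were put on one scale. With the hybridisation controls as a covariate 10 fell and 1 rose, with a median of -0.05. In that fit falls were called for 6.6% and rises for 9% of expressed probe sets. With that covariate and the replicate number together 0 fell and 0 rose, and the share of expressed probe sets in that fit is not given here. The hybridisation controls read higher in cocultures, so the covariate and coculture cannot be fully told apart in these fits. Of the 37 falls 8 kept their call with the covariate, in Dnajb1 (both probe sets), Hspa2, Hspa9, Cct4, Hspe1, Dnaja4 and Dnajc5. Leaving out control replicate 2 or control replicate 3 at 96 h left 24 falls each, and leaving out all 4 arrays numbered 1, 3 or 4 left 17, 23 and 15. The shares of expressed probe sets called in these smaller fits are not given here, so the drop cannot be set against that of the whole table.

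**Figure D1:**
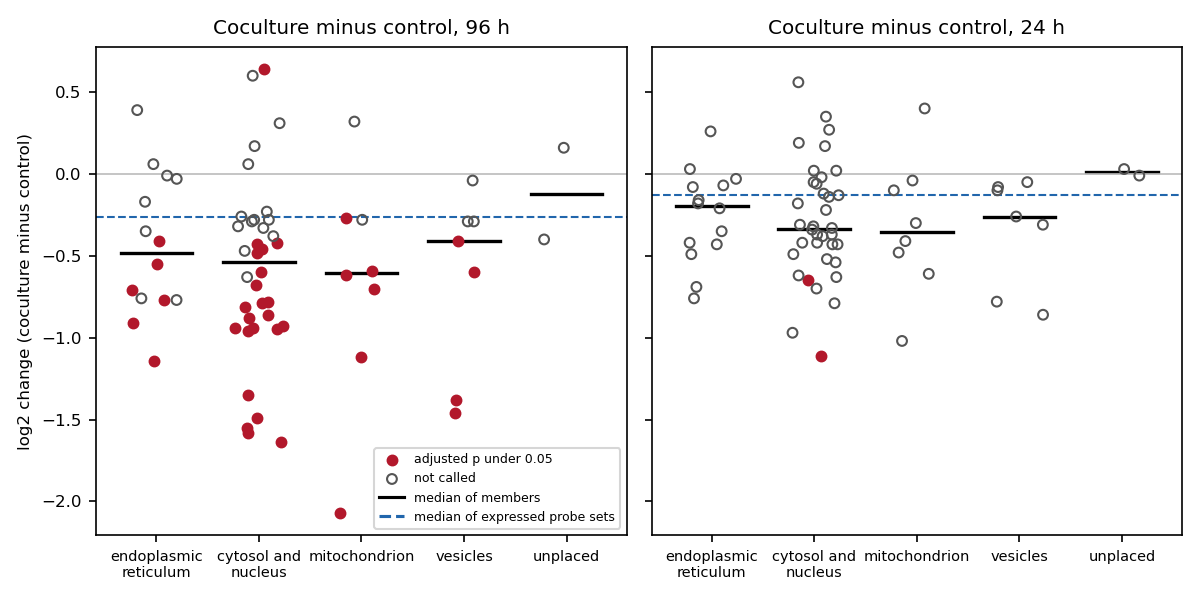
Log2 change with coculture (cocultured minus control) of each member probe set by compartment, at 96 h on the left and 24 h on the right. Filled red points passed adjusted p under 0.05, open points did not, black bars are medians of the members and the dashed line is the median of expressed probe sets (-0.26 at 96 h, -0.13 at 24 h). At 96 h every placed compartment has its median below the dashed line and most of its points below 0.

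In the endoplasmic reticulum 6 of 14 probe sets fell at 96 h and 0 rose, with a median log2 change of -0.48. The falls lay in 5 of 9 genes, and the membrane DnaJ protein Dnajc14 had the largest. Its probe set with the larger change had ratios of 0.350, 0.996, 0.783, 0.672 and 0.353 in the cocultures, against 1.25, 1.51, 1.44, 1.65 and 0.748 in the controls (replicates 1 to 5). The groups overlapped, because control replicate 5 lay below cocultured replicates 2 and 3, yet all 5 same-numbered pairs were lower in coculture. The log2 change was -1.14 ± 0.35 (SE), adjusted p 0.0211, and the other Dnajc14 probe set fell by 0.71 with no overlap.

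Dnajc10, a reductase that helps clear misfolded proteins, and Dnajc3, an inhibitor of the kinase Perk, fell as well. Dnajc10 had ratios of 0.605, 1.04, 0.885, 0.609 and 0.375 in cocultures, against 1.30, 1.5, 1.55, 1.45 and 0.692 in controls, a log2 change of -0.91 ± 0.28 (adjusted p 0.0228). Dnajc3 had ratios of 0.624, 1.02, 1.03, 0.883 and 0.457 in cocultures, against 0.928, 1.77, 1.56, 1.51 and 0.998 in controls, a change of -0.77 ± 0.26 (adjusted p 0.0319). In Dnajc10 replicate 5 was the lowest array of both groups and made them overlap. In Dnajc3 control replicates 1 and 5 lay below cocultured replicates 2 and 3. The other probe sets of Dnajc10 read -0.76 and 0.06 and were not called, the first of them with an adjusted p of 0.0843, or 0.00133 with the replicate number as a block.

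Dnajb11, a luminal partner of the Hsp70 BiP, had ratios of 0.785 to 0.993 in cocultures and of 1.19 to 1.55 in controls, with no overlap, and fell by 0.55 ± 0.11 on the log2 scale (adjusted p 0.00233). Calreticulin (Calr), a lectin chaperone for glycoproteins, had ratios of 0.815 to 1.02 in cocultures and 0.930 to 1.46 in controls and fell by 0.41 ± 0.13 (adjusted p 0.0254). The other members of the compartment, Hspa5, Canx, Dnajb9 and Dnajc1, did not pass the unblocked test. BiP itself (Hspa5) had ratios of 0.984, 1.07, 1.18, 1.11 and 0.803 in cocultures, against 1.23, 1.18, 1.14, 1.19 and 1.02 in controls, a change of -0.17 ± 0.11 (adjusted p 0.225). The membrane lectin calnexin (Canx) read -0.01 and -0.35 on its 2 probe sets, with adjusted p of 0.942 and 0.146, and 0.0238 for the second of them with the replicate block. Dnajb9, another partner of BiP, read -0.77 ± 0.34 with an adjusted p of 0.0831, and 0.00427 with the block. Dnajc1 read -0.03 and 0.39 and was not called, the second probe set with an adjusted p of 0.0107 under the block. With the hybridisation covariate 0 of the 14 fell, and Dnajc14, Dnajc10, Dnajc3, Dnajb11 and Calr read 0.01, 0.04, -0.01, -0.29 and -0.13.

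**Figure D2:**
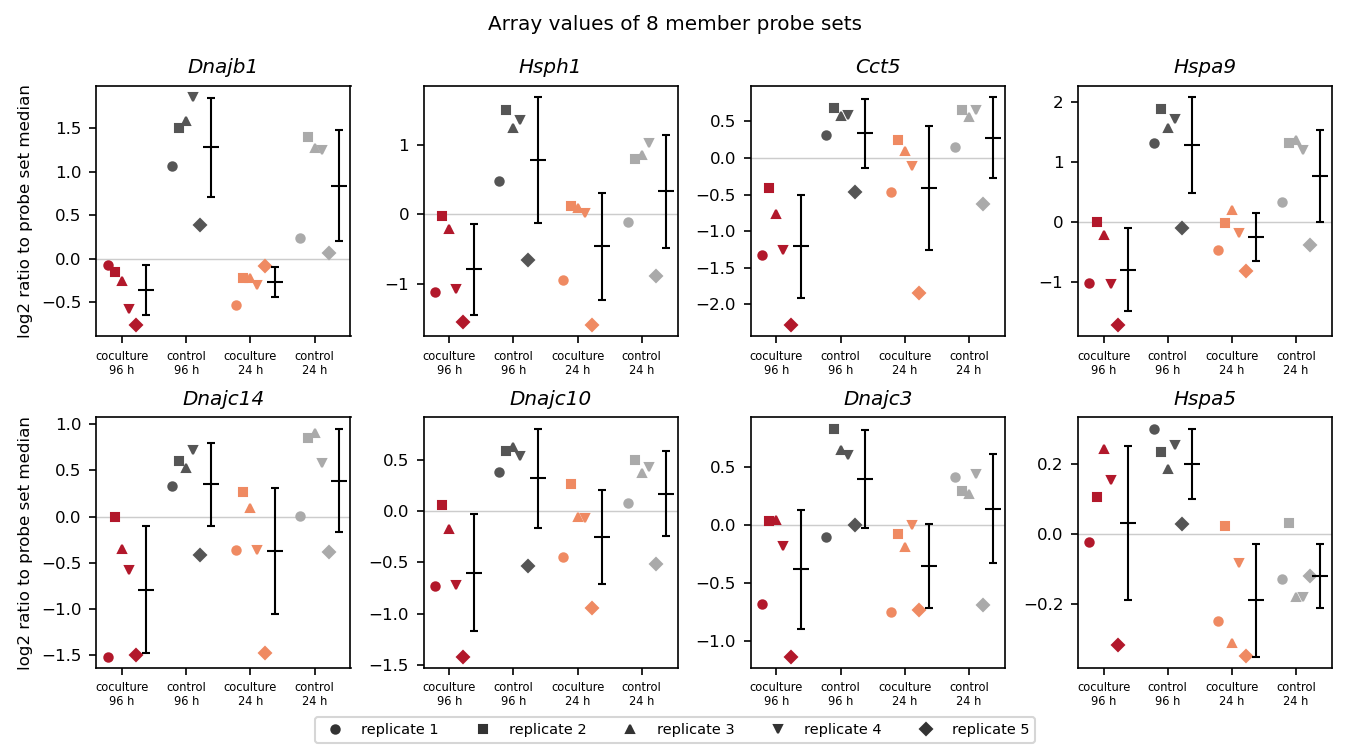
Log2 ratio of 8 member probe sets on each of the 20 arrays, with cocultured arrays in red and orange, controls in grey, symbols for replicates 1 to 5, and the mean ± SD of each group (n = 5) beside the points. Dnajb1 separates cocultures from controls at 96 h, Hspa9, Hsph1, Cct5, Dnajc14 and Dnajc10 overlap there through a low control replicate 5, Dnajc3 overlaps through control replicates 1 and 5, and Hspa5 overlaps as well.

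In the cytosol and nucleus 21 of 36 probe sets fell at 96 h and 1 rose, with a median log2 change of -0.54. Dnajb1, the Hsp40 that delivers clients to inducible Hsp70, had ratios of 0.952, 0.901, 0.838, 0.672 and 0.590 in cocultures, against 2.10, 2.82, 3.01, 3.62 and 1.31 in controls. Every coculture lay below every control, and the gene fell by 1.64 ± 0.27 (adjusted p 0.000362). Its second probe set also fell without overlap, by 0.93 ± 0.17 (adjusted p 0.000862). Both falls kept an adjusted p under 0.05 with the hybridisation covariate, at 0.0117 and 0.0277, with smaller changes of -1.0 and -0.56.

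Hsph1 (deposited as Hsp105), the Hsp110 that recharges Hsp70 and whose promoter carries a 3-unit element, had ratios of 0.460, 0.983, 0.866, 0.475 and 0.343 in cocultures, against 1.40, 2.82, 2.35, 2.55 and 0.633 in controls. The groups overlapped only because control replicate 5 was low, and the change was -1.58 ± 0.45 (adjusted p 0.0155). Its other probe set fell by 0.43 with no overlap. Hspbp1, which also promotes release of nucleotide from Hsp70, had ratios of 0.582 to 0.851 in cocultures and 1.09 to 2.29 in controls and fell by 1.35 ± 0.29 (adjusted p 0.00279). Neither gene was called with the hybridisation covariate, where the larger change of Hsph1 read -0.04 (adjusted p 0.918) and Hspbp1 read -0.48 (adjusted p 0.111).

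The Hsp70 members themselves differed. Hspa2, an Hsp70 known best from testis, had ratios of 0.668 to 0.983 in cocultures, against 1.45 to 3.49 in controls, and fell by 1.49 ± 0.24 (adjusted p 0.000347), also with the covariate (adjusted p 0.0114). Hspa8, the constitutive Hsc70, had ratios of 0.725 to 0.972 in cocultures and 1.11 to 1.24 in controls and fell by 0.48 ± 0.11 (adjusted p 0.00516). Neither of these overlapped, and with the covariate Hspa8 read -0.21 (adjusted p 0.183). Stress-inducible Hspa1b read -0.28 ± 0.18 and was not called (adjusted p 0.219), with ratios of 0.874 to 1.24 in cocultures and 0.966 to 1.42 in controls. It passed the test under other scalings, at -0.71 with the covariate (adjusted p 0.00966) and -0.49 after cyclic loess (adjusted p 0.00859). The Hsp110 relative Hspa4 read -0.63 ± 0.45 and 0.06 ± 0.14 on its 2 probe sets, neither called, the first with an adjusted p of 0.00399 under the block, and 0.79 with the covariate (adjusted p 0.0652). Hsp90aa1 (deposited as Hspca), the inducible Hsp90, fell by 0.81 ± 0.27 (adjusted p 0.0308) on a probe set with ratios of 0.346 to 0.986 in cocultures and 0.972 to 1.34 in controls, and read -0.29 on another that was not called, with an adjusted p of 0.0263 under the block. With the covariate the first read -0.05 (adjusted p 0.92). The small heat shock protein Hspb6 fell by 0.42 ± 0.13 (adjusted p 0.0194, or 0.185 with the covariate), and Hspbap1 read -0.33 and was not called (0.0167 under the block). Among other DnaJ proteins of the cytosol, 1 probe set each of Dnaja1, Dnaja2, Dnaja4, Dnajb5, Dnajb6 and Dnajc9 fell, by 0.60 to 0.95, while Dnajc2 and Dnajc8 were not called. The block added falls of Dnajc8 (-0.23, adjusted p 0.0327) and of the other probe sets of Dnaja1 (-0.26, adjusted p 0.0315) and Dnaja4 (-0.47, adjusted p 0.0085), and rises of 2 probe sets of Dnajb6 (0.31 and 0.60, adjusted p 0.0371 and 0.00803). With the covariate, of the 6 called falls only that of Dnaja4 kept an adjusted p under 0.05 (0.0418), and the Dnajb6 probe set at 0.60 turned to -0.78 (adjusted p 0.0387). Members of near-identical families, such as Hspa8 with its processed copies and Hspa1b with Hspa1a, can share probes, so their values are uncertain to that extent.

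TRiC, the ring-shaped chaperonin that folds actin and tubulin, was measured by 9 member probe sets of 6 genes, of which 6 fell and 1 rose at 96 h, with a median of -0.68. The Cct5 probe set with the larger change had ratios of 0.397, 0.751, 0.587, 0.418 and 0.205 in cocultures, against 1.25, 1.6, 1.5, 1.51 and 0.726 in controls. Only control replicate 5 and cocultured replicate 2 overlapped, and the change was -1.55 ± 0.38 (adjusted p 0.00669). The second Cct5 probe set fell by 0.46 with no overlap. Cct4 (0.489 to 0.805 in cocultures, 1.03 to 1.56 in controls) fell by 0.94 ± 0.17 (adjusted p 0.000821) and Cct7 (0.404 to 0.877 in cocultures, 0.940 to 1.54 in controls) by 0.96 ± 0.22 (adjusted p 0.00412). Cct3 gave opposite calls on its 2 probe sets. The first fell by 0.86 ± 0.21 (adjusted p 0.00723), with 0.479 to 0.861 in cocultures and 0.997 to 1.45 in controls. The second rose by 0.64 ± 0.17 (adjusted p 0.0112), with 0.969 to 1.16 in cocultures and 0.603 to 0.979 in controls. Cct8 fell by 0.68 ± 0.24 on 1 probe set (adjusted p 0.0394) and read -0.28 on the other, and Cct6a read 0.17 ± 0.30 and was not called. Under the hybridisation covariate only Cct4 was called (-0.46, adjusted p 0.0174), while Cct5 read -0.28 and -0.21, Cct7 -0.27, Cct3 -0.18 and 0.37, the fallen Cct8 probe set 0.09 and Cct6a -0.67 (adjusted p 0.065).

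In the mitochondrion 6 of 8 probe sets fell, at least 1 in each of the 5 genes, with a median of -0.60. Hspa9 (deposited as Hspa9a), the mitochondrial Hsp70 that pulls proteins through the inner membrane, had ratios of 0.493, 1.0, 0.860, 0.491 and 0.305 in cocultures, against 2.50, 3.70, 2.97, 3.29 and 0.935 in controls. Cocultured replicate 2 lay just above control replicate 5 and the groups were otherwise apart, with a change of -2.07 ± 0.39 (adjusted p 0.00121), or -0.78 with the covariate (adjusted p 0.00813). The chaperonin Hspd1 and its lid Hspe1, whose promoters each carry runs of the heat shock element, fell without overlap by 0.59 ± 0.13 (adjusted p 0.00429) and 0.70 ± 0.12 (adjusted p 0.000787). Dnaja3, the DnaJ partner of Hspa9, fell by 0.62 ± 0.14 (adjusted p 0.00428), and Dnajc11 by 0.27 on 1 of its 2 probe sets. With the covariate Hspe1 kept its call (-0.38, adjusted p 0.0183), while Hspd1 read -0.20 (adjusted p 0.167), Dnaja3 -0.33 (adjusted p 0.144) and Dnajc11 -0.32 (adjusted p 0.0576). A second Hspa9 probe set fell by 1.12 (adjusted p 0.00148), and the last one read 0.32 and rose under the block (adjusted p 0.0183).

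Of the DnaJ proteins that act on vesicles 4 of 7 probe sets fell, with a median of -0.41. Dnajc5 encodes cysteine string protein, the chaperone of the synaptic vesicle, and 3 of its 4 probe sets fell, by 1.38 ± 0.41 (adjusted p 0.0179), 0.60 and 0.41. Dnajc6, the neuronal auxilin that strips clathrin from vesicles, fell by 1.46 ± 0.49 (adjusted p 0.0301) on 1 of 2 probe sets. With the hybridisation covariate both of these larger falls turned to changes slightly above 0, 0.04 and 0.13, and were not called, while the Dnajc5 probe set that fell by 0.60 read -0.79 (adjusted p 0.0136). The other Dnajc6 probe set read -0.29 (adjusted p 0.0357 with the block). Dnajc13, an endosomal DnaJ protein, read -0.29 and was not called, nor were Dnajc4 (0.16, or 0.48 with the covariate, adjusted p 0.009) and Tmem132a (-0.40, adjusted p 0.000664 with the block).

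The gap in median change between the endoplasmic reticulum and the cytosol was small at 96 h in the main fit. Its size and sign depended on the processing. At 96 h falls were called for 42.9% of the 14 endoplasmic reticulum probe sets and 58.3% of the 36 cytosolic ones. The median change of the former lay 0.06 above that of the latter, with an SD of 0.13 over the 5 same-numbered pairs. With the hybridisation covariate it lay 0.19 above, with medians of 0.00 and -0.19. With 1 value per gene the gap was -0.02, with medians of -0.54 and -0.52. At 24 h the gap was 0.15, with an SD of 0.12 over pairs, and 0.00 with the hybridisation covariate. These SDs are the spread between pairs and not the error of the gap. These medians received no test. On single arrays the median of cytosolic members ranged from -0.96 to -0.06 in cocultures and from -0.03 to 0.33 in controls at 96 h. That of endoplasmic reticulum members ranged from -0.43 to 0.02 in cocultures and from 0.01 to 0.44 in controls. The mean of these array medians at 96 h was -0.39 in cocultures and 0.21 in controls for the cytosol. For the endoplasmic reticulum it was -0.16 and 0.24. At 24 h these means were -0.16 and 0.15 for the cytosol, and -0.16 and 0.10 for the endoplasmic reticulum. Cocultured replicate 5 had the lowest median of both compartments at both times. By motif, genes with a 3-unit heat shock element had 7 falls on 8 probe sets at 96 h, with a median of -0.60. Genes with a 2-unit element, the 3-unit genes among them, had 16 on 21, also with a median of -0.60. Those with an endoplasmic reticulum stress element had 3 on 6, with a median of -0.38. Falls were called for 55.2% of all members and 30% of expressed probe sets. With the hybridisation covariate only Cct4 and Hspe1 of the 3-unit genes kept their calls, and no gene with the stress element did. A tie between motif and change was not tested.

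**Figure D3:**
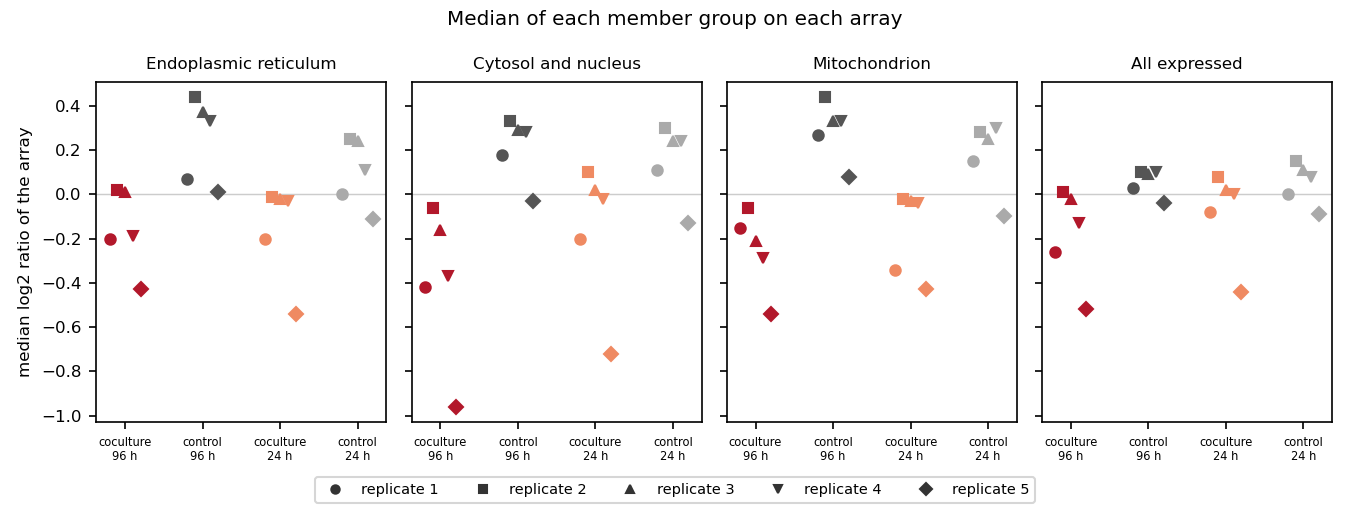
Median log2 ratio of endoplasmic reticulum, cytosolic and mitochondrial members and of all expressed probe sets on each of the 20 arrays, by group and replicate number. At 96 h the cytosolic medians lie at or below -0.06 in all cocultures and at or above -0.03 in all controls, and replicate 5 is the lowest array of its group in each panel.

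A further 24 expressed probe sets, of 19 genes, fit the rule by their current RefSeq name though not by the deposited one. They were added after the data had been seen. At 96 h 14 of them fell and 2 rose, with a median of -0.68. Falls were called for 30% and rises for 8.52% of expressed probe sets. Hsp90b1, the Hsp90 of the endoplasmic reticulum, had ratios of 0.428 to 0.982 in cocultures and 0.771 to 1.84 in controls and fell by 0.96 ± 0.28 (adjusted p 0.0171). Of the disulfide isomerases, Pdia4 fell by 0.70 ± 0.22 (adjusted p 0.0249) and Pdia6 by 0.37 ± 0.14 (adjusted p 0.0430), while Pdia3 read -0.58 and -0.08 and was not called. The first of these had an adjusted p of 0.00127 under the block and rose by 0.63 with the covariate (adjusted p 0.0378). Hspa13, a microsomal Hsp70, fell by 0.67 on 1 of 2 probe sets. In the cytosol Hsp90ab1, the constitutive Hsp90, fell by 1.02 ± 0.22 (adjusted p 0.00282) on 1 of 2 probe sets, and on the other with the block (-0.64, adjusted p 0.000191), and the TRiC subunit Cct2 fell by 0.83 ± 0.28 (adjusted p 0.0307). The block also added falls of Dnajb14 (-0.50) and Dnajc12 (-0.37). With the covariate 0 of the 24 fell and 1 rose, with a median of 0.02. The rises were Hspa4l (0.45 on 1 probe set, while another fell by 0.97) and a probe set of Hspbap1 (0.72). With these names the endoplasmic reticulum had 11 falls of 23 (47.8%), the cytosol 27 of 47 (57.4%) and the mitochondrion 9 of 11 (81.8%).

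Partners of the chaperones were counted in lists drawn up from general knowledge. Of 29 probe sets of cochaperones and regulators 17 fell and 0 rose at 96 h, with a median of -0.72. Among expressed probe sets falls were called for 30% and rises for 8.52%, with a median of -0.26. Tomm34 (-0.83), a cochaperone of mitochondrial import, the ubiquitin ligase Stub1 (-1.08), the Hsp70 cofactor St13 (-1.21), the prefoldin subunit Pfdn6 (-1.39), Cdc37 (-0.82), which loads kinases onto Hsp90, and the immunophilin Fkbp4 (-1.21) had the smallest p with Hsf2, which fell by 0.72 on 1 of 3 probe sets. Heat shock factor Hsf1 fell by 0.65 ± 0.19 (adjusted p 0.0169). Of 45 probe sets of the unfolded protein response and of folding in the endoplasmic reticulum 20 fell and 2 rose, with a median of -0.36. The transcription factors Atf4 and Xbp1 fell by 1.63 ± 0.30 (adjusted p 0.00104) and 0.97 ± 0.21 (adjusted p 0.00316), and the stress-induced Herpud1, Manf and Txndc12 by 1.29, 1.14 and 1.17. Uggt2, a glucosyltransferase of folding control, rose by 1.06 ± 0.20 (adjusted p 0.00101). With the block 28 of the 45 fell and 6 rose, where falls were called for 47.1% and rises for 16.8% of expressed probe sets. Under the hybridisation covariate 2 of the 29 partners fell, and 3 of the 45 fell and 4 rose. Falls were called in that fit for 6.6% and rises for 9% of expressed probe sets.

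After 24 h Dnajb1 was the only gene with a member probe set past the test in the unblocked fit. Of the 67 probe sets 2 fell and 0 rose, where falls were called for 3.48% of expressed probe sets and 2.1% of all, and rises for 1.79% and 1.21%. Dnajb1 had ratios of 0.693, 0.860, 0.860, 0.814 and 0.946 in cocultures, against 1.18, 2.64, 2.41, 2.37 and 1.05 in controls. No coculture reached a control, and the change was -1.11 ± 0.27 (adjusted p 0.0242). The second probe set fell by 0.65 ± 0.17 (adjusted p 0.0372), with ratios of 0.548 to 0.934 in cocultures and 1.06 to 1.38 in controls. At an unadjusted p under 0.05 18 probe sets were lower and 2 higher. The share of expressed probe sets past an unadjusted p is not given here, nor for the comparisons below.

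The median change of all members at 24 h was -0.31, where that of expressed probe sets was -0.13. Of the members 56 of 67 lay below 0, and the share of expressed probe sets below 0 is not given here. With the replicate number as a block 31 fell and 2 rose, where falls were called for 27.2% and rises for 10.9% of expressed probe sets. In all 5 pairs 34 of 67 probe sets were lower in coculture, and the share of expressed probe sets for which this held is not given here. Under the block the falls included Hspa9 (-1.02, adjusted p 0.000126), Hspbp1 (-0.97, adjusted p 0.00013), Hsph1 (-0.79, adjusted p 0.000915), Dnajc14 (-0.76 and -0.69), Cct5 (-0.70), Hspa2 (-0.63), Hspe1 (-0.41) and Hspa8 (-0.34), and the rises were 1 probe set each of Cct3 (0.56) and Hspa9 (0.40). The other probe sets of Hsph1 and Cct5 read -0.02 and -0.12 and were not called under the block (adjusted p 0.864 and 0.307). Of the 14 endoplasmic reticulum probe sets 0 fell without the block and 5 with it: Dnajc14 on both, Dnajb11, Dnajc10 and Dnajc3. Hspa5 (-0.08), Calr (-0.16), Canx (-0.03 and -0.18) and Dnajb9 (-0.21) were not called in either fit. With the hybridisation covariate 0 fell and 1 rose, a probe set of Hspa4, against 2.8% and 5.72% of expressed probe sets. Leaving out cocultured replicate 1 or control replicate 2, 3 or 4 at 24 h left 0 calls, leaving out cocultured replicate 4 or 5 left 1, leaving out control replicate 1 left 4, leaving out control replicate 5 left 12, leaving out cocultured replicate 5 of 96 h left 7, and leaving out all arrays numbered 5 left 18, of which 17 fell, against 15.8% of expressed probe sets. For the fits that left out a single array such shares are not given here.

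No member passed the unblocked test for time. Between 96 h and 24 h of coculture 0 of 67 were called and 6 were lower at an unadjusted p under 0.05, where the test called falls for 1.01% and rises for 0.617% of expressed probe sets. With the replicate block 12 fell (17.9%), against 15.2% of expressed probe sets, and 6 of these were probe sets of TRiC subunits. They were Cct4 (-0.44, adjusted p 0.00614), both probe sets of Cct5 (-0.80 and -0.36, adjusted p 0.000558 and 0.00697), Cct7 (-0.47, adjusted p 0.00206), Cct3 (-0.32) and Cct8 (-0.31). Cct5 had ratios of 0.205 to 0.751 in 96 h cocultures and of 0.277 to 1.19 in 24 h cocultures, so the groups overlapped although each pair was lower at 96 h. The block falls also held Tmem132a (-0.44), Dnajb5, Dnaja1, Dnajc10, Dnajc5 and Hspa9. With the hybridisation covariate 2 members fell, where 821 of 17191 expressed probe sets did. They were the probe sets of Cct5 (-0.44 and -0.29, adjusted p 0.0409 and 0.0429). With covariate and block together 0 members fell, and the share of expressed probe sets in that fit is not given here. Between 96 h and 24 h in controls 0 passed and 3 were higher at an unadjusted p under 0.05, against 0.128% rises and 0.0989% falls among expressed probe sets. With the block, where rises were called for 2.92% of expressed probe sets, Hspa2 rose by 0.77 ± 0.16 (adjusted p 0.0102), with ratios of 1.45, 3.06, 2.20, 3.49 and 1.90 at 96 h and 0.791, 2.11, 1.68, 1.49 and 1.09 at 24 h.

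The change with coculture was not shown to differ between 96 h and 24 h for any member in the unblocked fit, where 0 of 67 passed, 4 were lower at an unadjusted p under 0.05, and 0.0233% of expressed probe sets fell and 0.00582% rose. With the block 6 did, all with a lower value at 96 h, against 4.39% of expressed probe sets: Hspa9 (-1.05), Hspa4 (-0.90), Hspa2 (-0.86), Cct5 (-0.86), Cct7 (-0.53) and Cct4 (-0.51), with adjusted p from 0.0150 to 0.0486. With the hybridisation covariate 0 passed. The Hspa4 probe set at -0.90 had ratios of 0.477 to 1.05 in cocultures and 0.599 to 1.63 in controls at 96 h. At 24 h it had 0.411 to 2.46 in cocultures and 0.279 to 1.86 in controls. All 5 of its pairs were lower in coculture at 96 h and all 5 higher at 24 h, where replicate 4 read 0.903 against 0.901. The other Hspa4 probe set had a difference of 0.11 (adjusted p 0.905 without the block, 0.689 with it). Of its 5 pairs 2 were lower in coculture at 96 h and 3 at 24 h.

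Probe sets of the same gene often disagreed in size. Of the 43 genes 19 had several probe sets, and in 11 of these the 96 h changes spread by more than 0.5 on the log2 scale. In 6 genes the signs differed, in 4 all probe sets fell (Dnajb1, Hsph1, Cct5 and Dnajc14), and only Cct3 had calls in both directions in the unblocked fit. With the block Hspa9 and Dnajb6 did as well. The 3 probe sets of Hspa9 read -2.07, -1.12 and 0.32, and those of Dnajb6 -0.95, 0.31 and 0.60. With 1 mean value per gene 28 of 43 genes fell at 96 h and 0 rose, where 41.7% of genes fell and 7.44% rose, and 4 fell at 24 h (Dnajb1, Dnaja3, Hspbp1 and Hspe1), where 7.64% did. By gene, 5 of 9 endoplasmic reticulum, 15 of 24 cytosolic, 5 of 5 mitochondrial and 2 of 3 vesicle genes fell at 96 h.

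**Figure D4:**
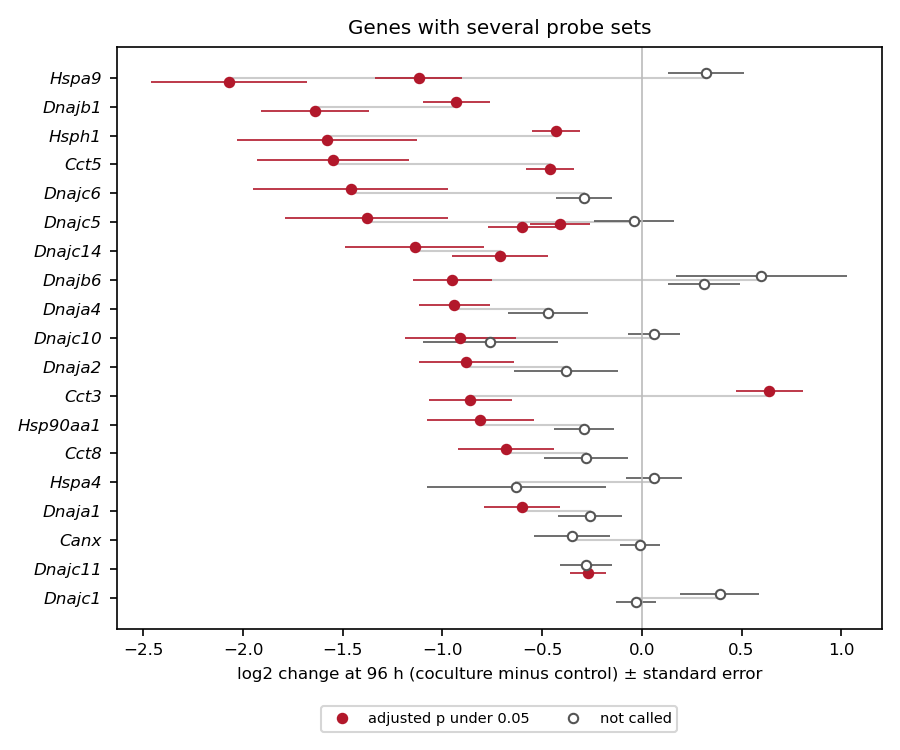
Log2 change at 96 h (cocultured minus control) ± SE of every probe set of the 19 genes with several, a row per gene, filled red where adjusted p was under 0.05. The points of Hspa9, Dnajb6 and Cct3 lie on both sides of 0, and those of Dnajb1, Hsph1, Cct5 and Dnajc14 are all filled and below 0.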

How the data were processed

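The authors deposited linear ratios: per the file headers, RMA was run on the 20 arrays together and every probe set was scaled to its own median. The submitters' processing notes list RMA and MAS5, with roles and versions not given in the sources used here. As a check, the median of a probe set was 1 (tolerance 0.001) for 31069 of 31099. Per the file headers, the deposited annotation table keeps what was present in 10 of 20 arrays. As 10 arrays are as many as 2 groups hold, a probe set could pass through cocultures or controls alone.

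The log2 of each ratio entered limma (version 3.58.1, R 4.3.3) with the 4 group means as the only terms. P-values were adjusted by Benjamini-Hochberg over 31042 probe sets, without 57 controls, and called at 0.05. In data simulated for the 24 h comparison over 17191 probe sets, 18%, 72%, 90% and 100% of log2 changes of 0.5, 1, 1.5 and 2 were called. Whether these shares hold for the deposited arrays, with their shared replicate numbers and the adjustment over 31042 probe sets, was not tested. Signal over background cannot be read from ratios, and the number of arrays limits the precision. Values after ± are standard errors of the fit unless named SD. The labels call the replicates biological, and p-values measure the spread between these samples.

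Whether replicate numbers pair the arrays was checked by correlating each array's departure from its group mean: all 30 same-number pairs lay at or above 0.272 (median 0.547), other pairs had a median of -0.227, and the numbers were taken to pair the arrays. Unless the block is named, changes, SE and adjusted p come from the fit that leaves this pairing out. The SE of the largest 96 h fall of Hspa9 was 0.39 there and 0.16 with the block. For that of Dnajc14 it was 0.35 and 0.14. The fit with the number as a block is given by its counts, and by value for the members whose call it changes at 96 h. Alternatives were a random block, the hybridisation controls as a covariate, other scalings, array weights, a robust prior, fewer probe sets or groups, 1 value per gene, and arrays left out.

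Members and lists were chosen with earlier results of these data known. Named are the Hsp70, Hsp90, Hsp110, small heat shock and chaperonin families, Calr, Canx, Dnajb1, Dnajb9, Dnajb11 and Dnajc3, and per comparison up to 8 of the largest called changes each way. For 6 members every array is given, and Hspa9 and Hspa5 were added. Current symbols came from the RefSeq table of GRCr8, by Entrez identifier for 64 of 67 members.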

Additional observations from a re-analysis of the deposited data

Results flagged for a closer look

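Most arrays that stood far from their own group carried replicate number 5. Of 168 sets of 5 values examined, 23 had an array whose gap to its nearest neighbour took more than 0.71 of the range (Dixon's critical value for 5 samples). Chance alone gives about 1 in 20 for a single set. The sets share the same 20 arrays and are not independent, so that rate does not test the count of 23. Of the 23, 21 were arrays numbered 5 and 13 of these were cocultures. Among cocultures at 96 h, replicate 5 had ratios of 0.829 and 0.517 on the probe sets of Canx, 0.366 on a probe set of Hspa9 and 1.09 for Hspb6. Among cocultures at 24 h it had 0.329 for Hspbp1, 1.68 for Hspa1b, 0.820 and 0.620 for Canx, 0.705 and 0.366 for Hsp90aa1, 0.154 for Dnajc6, 0.400 for Dnajb9 and 0.649 for Hspa2. Hspa1b and Hspb6 stood above their groups and the others below. Among controls at 96 h replicate 5 had 0.935 for Hspa9 and 0.692 for Dnajc10. Among controls at 24 h it had 0.620 for Dnajc3, 0.812 for Cct7, 0.869 for Hspd1, 0.758 for Hsp90aa1 and 0.883 for Hspa9, and a median log2 ratio of -0.15 over the TRiC subunits. The other 2 were control replicate 2 at 24 h for Hspa5 (1.02) and control replicate 1 at 96 h for a probe set of Cct3 (0.979).

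The change with coculture differed between 96 h and 24 h for 6 probe sets in the fit blocked on replicate number. The difference was -1.05 for Hspa9 (adjusted p 0.0176), -0.90 for Hspa4 (0.0467), -0.86 for Hspa2 (0.0401), -0.86 for Cct5 (0.0150), -0.53 for Cct7 (0.0273) and -0.51 for Cct4 (0.0486). Without the block all 6 had an adjusted p of 0.887. The Hspa4 probe set with the difference of -0.90 was also the member whose 5 pairs were all lower in coculture at 96 h and all higher at 24 h. The other Hspa4 probe set had a difference of 0.11 (adjusted p 0.689 with the block).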

How the results depend on the processing

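Counts are member probe sets called in either direction. At 96 h the count was 38, and 53 with the replicate block, 11 with the hybridisation covariate and 0 with that covariate and the replicate block together. At 24 h it was 2, and with other settings 33 (replicate block), 34 (random block), 33 (array weights), 35 (replicate block without replicate 5), 11 (quantile scaling), 4 (1 value per gene), 1 (covariate, equal array medians or cyclic loess) and 0 (covariate with block, or only the 2 groups compared). For time in cocultures it was 0, and 12 (block), 6 (random block), 8 (array weights), 20 (block without replicate 5), 2 (covariate) and 1 (cyclic loess). For time in controls it was 0, and 1 with the block, the random block, the covariate or both of block and covariate, and 5 with array weights or with the block without replicate 5. For the difference between 96 h and 24 h it was 0, and 6 (block), 13 (block without replicate 5) and 1 (array weights). The whole table shifted as well. At 24 h 599 of 17191 expressed probe sets fell and 308 rose in the main fit, and 1646 fell and 727 rose with quantile scaling. With the replicate block 27.2% of expressed probe sets fell and 10.9% rose at 24 h. For other settings, such as the random block and array weights, such shares are not given here. The cause of these shifts was not tested.

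Leaving out arrays or replicate numbers gave counts of 15 to 45 at 96 h, of 0 to 18 at 24 h and of 0 to 6 for time in cocultures (0 for the other comparisons). It gave a gap between endoplasmic reticulum and cytosol of 0.03 to 0.15 at 96 h (0.06 in all arrays, 0.19 with the covariate, 0.11 with covariate and block, and -0.02 with 1 value per gene) and of 0.06 to 0.22 at 24 h (0.15), which was 0.00 with the covariate, with or without the block. Of the 37 falls at 96 h the covariate turned 6 above 0: Dnajc14 to 0.01 (0.23 with the block), Dnajc10 to 0.04 (0.06), Dnajc5 to 0.04 (0.21) and 0.02, Dnajc6 to 0.13 and Cct8 to 0.09. It also turned the sign of 22 of 29 changes that were not called, among them Hspa4 (0.79), Dnajb9 (0.18), Canx (0.10 on both probe sets), Hspa5 (0.03) and Cct6a (-0.67). Cyclic loess moved the median of members at 96 h to -0.26 and that of expressed probe sets to -0.06. After it 32 members fell and 5 rose, where 4027 of 17191 expressed probe sets fell and 1848 rose. Besides Cct3, the rises were probe sets of Dnaja1 (0.19, adjusted p 0.0315), Dnaja2 (0.26, 0.027), Dnajc2 (0.28, 0.0311) and Dnajc5 (0.28, 0.0407). These lay below 0 in the main fit. Depth limits cannot be stated, since ratios hide signal over background.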

Other observations

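The 2 probe sets that fit the rule but name several genes were kept out of every count. The probe set shared by Hspa1a and Hspa1b, the stress-inducible Hsp70 genes, had ratios of 0.731 to 1.69 in cocultures and 1.14 to 1.64 in controls at 96 h, and of 0.626 to 0.964 in cocultures and 0.677 to 1.11 in controls at 24 h. The probe set shared by Dnajb6 and uncharacterised loci had ratios of 0.440 to 0.925 in cocultures and 0.566 to 2.00 in controls at 96 h. Both overlapped between groups.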
